A study of Mus musculus with 12 samples.

Results

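The genes described here copy and divide the chromosomes. They are the 41 mouse genes of a named list that runs from the licensing of replication origins to the separation of chromosomes and the transcription factors of the cell cycle, and their levels were compared in 3 cell lines. Symbols were matched to the array targets through transcript identifiers, and 40 of the 41 genes had a target, out of 25128 genes and targets tested in all. Mki67 had no matched target and was not analysed here. The 40 genes were read by 123 probes, 3 for each gene and 6 for Birc5, which has a pair of targets.

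RNA was taken from 12 plates of unsorted cells, 4 for each line, and each plate was read on a single-color NimbleGen array of its own. The lines are AtT20, which derives from a mouse pituitary corticotroph tumor, BV2, an immortalized mouse microglial line, and N18, a mouse neuroblastoma line. All plates were grown in the same serum-containing medium and received no treatment, so every difference below lies between untreated lines, and each stands for 1 established cell line only. For BV2 alone, the paper adds that the culture conditions favored a resting state over an activated one. Per the methods, RNA was extracted once a plate had become confluent. The share of cells in each phase of the cycle was not given, and a plate with fewer dividing cells cannot be told apart from a plate whose dividing cells hold less of an mRNA.

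As background, a cell licenses its replication origins by loading a ring of Mcm proteins with the help of Cdc6 and Cdt1, and Cdc45 then turns the ring into a running helicase. Ribonucleotide reductase, thymidylate synthase and thymidine kinase supply the nucleotides that the polymerases use on the Pcna clamp. Cyclins switch the kinases on in order, the spindle checkpoint holds the cell until each chromosome is attached, and the anaphase-promoting complex with Cdc20 and Ube2c then marks cyclin B and the chromosome glue for removal. E2f factors drive many genes of the replication phase and Foxm1 drives many genes of mitosis, which are therefore low in cells that do not divide and are read in tissue as signs of proliferation.

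The cell labels were checked against marker genes. On the BV2 plates 8 of 9 microglial genes were above the detection threshold described below, with a median level of 4.09, and on the N18 plates 10 of 11 sympathetic neuroblast genes were, with a median of 2.27. On the AtT20-labelled plates only 1 of 6 corticotroph genes (Pitx1) was, and Pomc, the gene for the precursor of the corticotroph hormone, had a level of 0.29 ± 0.26 (SD, n = 4 plates), below the threshold. The lists were not specific to their lines: 7 of the 11 neuroblast genes passed on the AtT20-labelled plates, led by the neurofilament genes Nefl and Nefm at 4.46 and 2.87, and 6 did in BV2, while 2 of the 6 corticotroph genes passed in BV2 and 3 in N18, and 2 of the 9 microglial genes in N18 and 0 on the AtT20-labelled plates. Of 10 genes that all cells use, 9 were above the threshold in each line. Their levels were lower on the AtT20-labelled plates, with a median of 3.10 there against 5.28 in BV2 and 5.76 in N18. The log2 values also spread least on the AtT20-labelled plates, whose arrays had interquartile ranges of 0.38 to 0.78, against 1.28 to 1.73 for BV2 and 1.91 to 2.21 for N18. For this reason the comparison of N18 with BV2 is given first and in full, and the plates of the line AtT20 are called AtT20-labelled. Slides hold several arrays, and which plates shared a slide was not given. An effect of the slide therefore cannot be separated from a difference between lines here.

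Promoters of many of the genes hold short sequences to which the regulators of the cell cycle are known to bind. The promoters of 4 genes are printed here because these genes stand at the ends and in the middle of the comparison below. Top2a and Ccnb1 had the largest differences in favor of N18, Mcm5 the largest in favor of BV2, and Cdc20 hardly differed between them. Each line below gives the 250 bases before the start of the gene, 5′ to 3′ on the strand of the gene, from RefSeq on build GRCm38.p6, and capitals mark any match on either strand to CCAAT (reverse ATTGG), the box of the factor NF-Y, to TTTGAA (reverse TTCAAA), the cell cycle homology region, or to an E2F site, searched as TTTCCCGC, TTTGGCGC and TTCCCGCC with their reverse complements.

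Top2a, chr11:99024190-99024439, minus strand: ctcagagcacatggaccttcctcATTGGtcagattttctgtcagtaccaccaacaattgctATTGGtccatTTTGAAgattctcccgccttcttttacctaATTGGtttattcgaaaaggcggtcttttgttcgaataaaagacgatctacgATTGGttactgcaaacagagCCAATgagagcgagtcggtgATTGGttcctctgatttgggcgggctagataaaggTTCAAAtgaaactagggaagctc

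Ccnb1, chr13:100786487-100786736, minus strand: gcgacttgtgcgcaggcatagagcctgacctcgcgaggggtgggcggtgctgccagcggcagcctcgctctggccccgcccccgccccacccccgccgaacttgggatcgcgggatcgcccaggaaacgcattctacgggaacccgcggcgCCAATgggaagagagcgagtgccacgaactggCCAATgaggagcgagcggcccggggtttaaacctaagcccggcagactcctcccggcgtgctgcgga

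Cdc20, chr4:118437344-118437593, minus strand: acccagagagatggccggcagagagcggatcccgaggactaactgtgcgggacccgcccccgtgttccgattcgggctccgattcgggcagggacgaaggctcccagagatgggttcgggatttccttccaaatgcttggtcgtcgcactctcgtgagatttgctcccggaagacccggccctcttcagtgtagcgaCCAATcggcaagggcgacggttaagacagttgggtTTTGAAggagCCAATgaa

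Mcm5, chr8:75109259-75109508, plus strand: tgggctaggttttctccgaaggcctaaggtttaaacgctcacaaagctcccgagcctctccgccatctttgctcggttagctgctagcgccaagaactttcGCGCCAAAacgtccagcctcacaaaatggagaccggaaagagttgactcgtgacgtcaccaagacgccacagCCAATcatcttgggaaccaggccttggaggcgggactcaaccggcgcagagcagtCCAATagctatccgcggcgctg

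The Top2a stretch holds 6 CCAAT matches and 2 matches to the cell cycle homology region, the Ccnb1 stretch 2 CCAAT matches, the Cdc20 stretch 2 CCAAT matches and 1 homology region, and the Mcm5 stretch 2 CCAAT matches and 1 E2F site. A promoter was found in the RefSeq table for 34 of the 41 genes. Of these, 26 (76.5%) hold CCAAT, against 37.5% of the 27025 genes in the table. The cell cycle homology region is held by 9 of 34 (26.5%), against 18.3%, and any of the E2F sites by 5 of 34 (14.7%), against 3.1%. The 5 genes with an E2F match are Mcm5, Mcm6, Mcm7 and Cdc6 of the licensing group and Rrm1. No match of any kind was found in the windows used for Birc5, Ccne1, Cdt1, E2f1, Mad2l1, Tk1 and Tyms. A window depends on the start that the RefSeq table gives, which can lie inside a gene, and starts outside the table were not searched. The lack of a match, as for E2f1, therefore does not show that the promoter of the gene lacks these letters. E2f2 has 2 windows, and its match to the cell cycle homology region lies in only 1 of them. The E2F letters overlap one another in part, and a match is a description of the letters in this window and not a site shown to be bound.

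Levels are given over a background: they are the log2 intensity of a gene minus the mean log2 intensity of 10 seminal proteins on the same plate, which cells of these lines are not thought to make. A gene counted as detected when its level, averaged over the 4 plates, passed a threshold of 2 SD of the seminal proteins, which was 0.37 for the AtT20-labelled plates, 0.56 for BV2 and 0.74 for N18. By this rule N18 had 39 of the 40 genes (55.4% of all 25128 genes and targets), BV2 36 (53.3% of all) and the AtT20-labelled plates 23 (35% of all). The median level of the 40 genes was 3.54 in N18, 2.39 in BV2 and 0.54 on the AtT20-labelled plates.

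All 11 genes of replication licensing and the helicase and all 5 genes of the clamp and nucleotide supply were detected in both BV2 and N18, as were all 7 mitotic kinases and checkpoint genes and the 3 transcription factors. The 14 genes detected in BV2 and N18 but not on the AtT20-labelled plates were Mcm5, Mcm10, Rrm2, Tyms, Ccnb1, Bub1, Bub1b, Mad2l1, Cdc20, Top2a, Birc5, Foxm1, E2f1 and E2f2. Only N18 passed for Ccne2, an E-type cyclin, and for Cenpa, the histone of the centromere, and Ccnb2, a B-type cyclin, passed in all but BV2. The remaining gene was Cdk1, the kinase that takes cells into mitosis, which passed in no line. Its level was -0.14, 0.21, 0.05 and -0.08 in the 4 N18 cultures and -0.43, -0.20, -0.41 and -0.47 in those of BV2, and none of its 3 probes passed the threshold in any line. These values say that the 3 probes stayed at the background and do not show that the mRNA was missing.

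**Figure D1:**
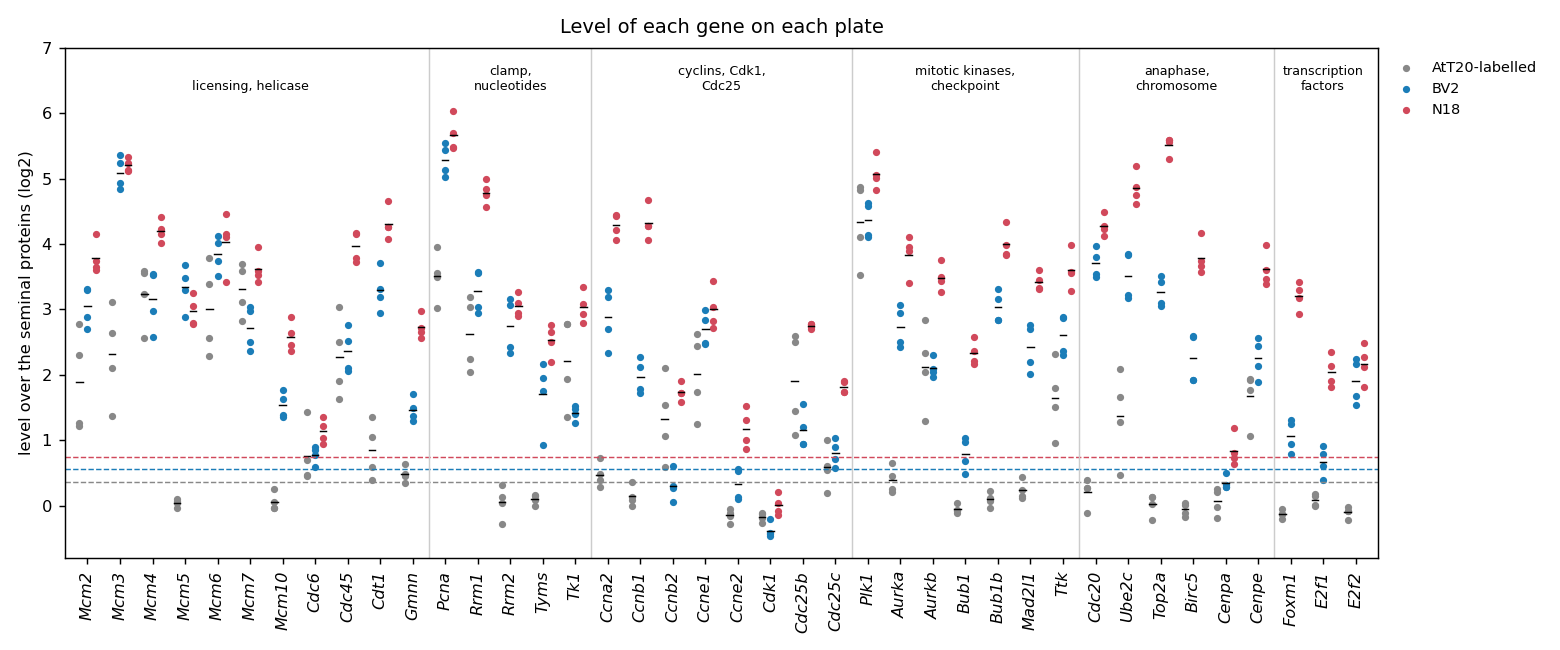
Level of each of the 40 genes on each plate, as log2 over the mean of the seminal proteins on the same plate; points are plates, black bars the means of 4 plates, and dashed lines the detection threshold of each line in its color. The N18 points lie above the N18 threshold of 0.74 on average for 39 genes, and the gray points of the AtT20-labelled plates lie near 0 for genes such as Top2a, Birc5 and Foxm1 but well above their threshold for Plk1 and Pcna.

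N18 and BV2 were compared on normalized intensities, that is, log2 intensities after quantile normalization of the 12 arrays, and a gene was called at a Benjamini-Hochberg adjusted p under 0.05 in limma over all 25128 genes and targets. Of the 40 genes 27 were higher in N18 and 6 lower, and 7 were not called. Of all genes and targets 25.9% were called higher and 35.8% lower. The median difference over the 40 genes was 0.42 on the log2 scale, against -0.06 over all genes and targets. The 4 N18 plates lay above the 4 BV2 plates without overlap for 25 of the genes and below them for 6, against 23.5% and 31.9% of all genes and targets. Among the 11602 genes and targets detected in both lines, 29.2% were called higher and 35% lower in N18, with a median difference of -0.06. Of the 36 listed genes detected in both, 24 were higher and 6 lower, with a median of 0.43.

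The scale matters for the lower genes. When the comparison was made on the levels over the seminal proteins, the median of all genes and targets moved to 0.18, 33 of the 40 genes were called higher and none (0) lower, against 41.9% and 15% of all genes and targets, and 38 of the 40 lay above that median, against 32 of 40 after quantile normalization. All 27 genes called higher kept their direction on both scales and without normalization. Of the 6 called lower only Mcm5 kept a negative difference on all 3. For the 11602 genes detected in both lines the share called higher on the scale of the seminal proteins was 52.5%, and the share called lower 7.95%, with a median difference of 0.45. Of the 36 listed genes detected in both, 29 were called higher and 0 lower on that scale, with a median of 1.03.

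**Figure D2:**
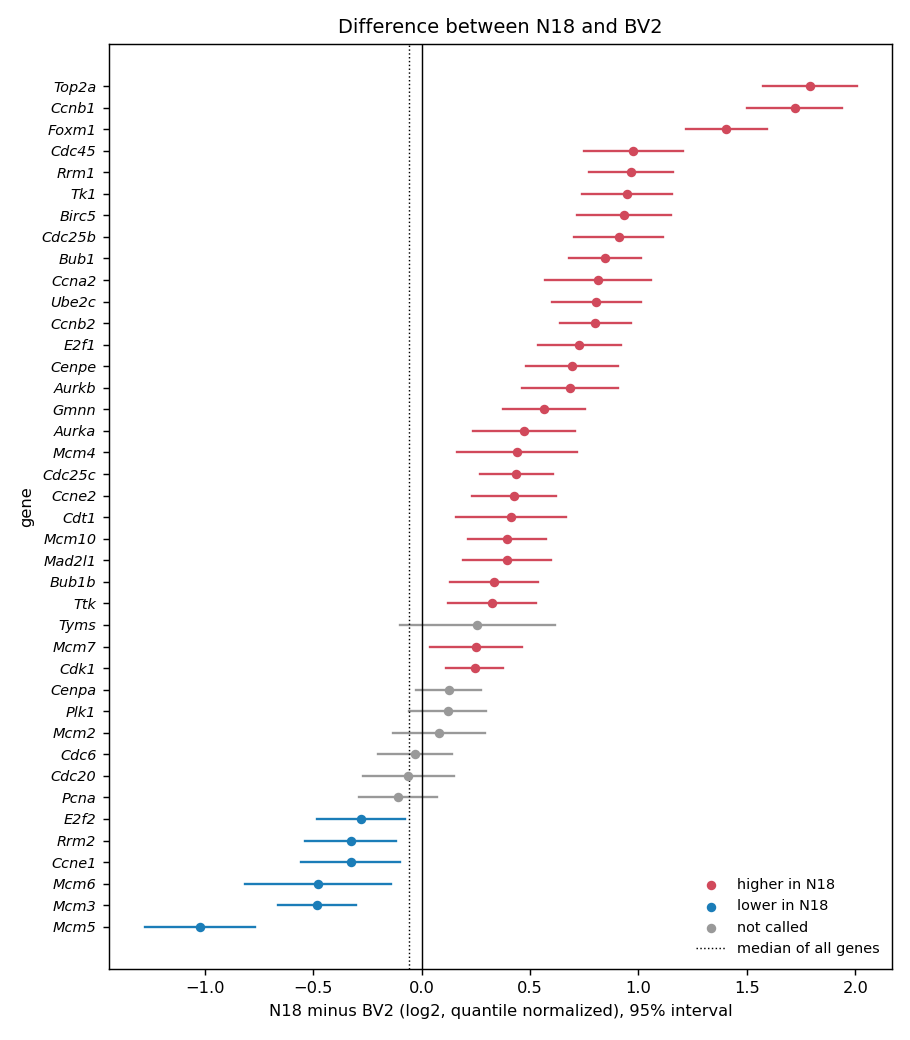
Difference between N18 and BV2 for each of the 40 genes on the log2 scale after quantile normalization, with 95% intervals from limma over 4 plates of each line; red genes were called higher in N18, blue lower and gray not called, and the dotted line is the median of all genes and targets. The points run from -1.02 for Mcm5 to 1.79 for Top2a, and Top2a, Ccnb1 and Foxm1 stand above the rest.

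Among the 6 genes of anaphase, chromosome structure and the kinetochore 4 were higher in N18, none (0) was lower, and the median difference was 0.75. Top2a encodes the topoisomerase that untangles sister chromosomes. Its normalized intensity was 15.00, 14.69, 14.77 and 15.01 in N18 and 12.99, 13.22, 13.14 and 12.98 in BV2, so that the groups lay far apart. The difference of 1.79 ± 0.10 (SE, n = 4 plates each), or 3.46-fold, had an adjusted p of 2.83e-09 in limma. All 3 of its probes moved the same way, by 1.62, 2.01 and 1.89. Birc5, or survivin, a subunit of the chromosome passenger complex, was higher by 0.93 ± 0.10 (adjusted p = 2.4e-06), with means of 13.01 and 12.21 for one of its targets and 12.95 and 11.88 for the other in N18 and BV2.

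Ube2c, the conjugating enzyme of the anaphase-promoting complex, was higher in N18 by 0.81 ± 0.10, and Cenpe, the kinetochore motor, by 0.69 ± 0.10. Cdc20, the activator of that complex, was not called. Its normalized intensity was 13.53, 13.43, 13.48 and 13.51 in N18 and 13.48, 13.74, 13.62 and 13.37 in BV2, so that the groups overlapped, and the 95% interval of the difference ran from -0.27 to 0.15. On the scale of the seminal proteins the difference of Cdc20 was 0.57. Cenpa differed by 0.13 ± 0.07 with an adjusted p of 0.131, and only 1 of its 3 probes passed the threshold in either line.

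Of the 8 genes of the cyclins, Cdk1 and its activating phosphatases 7 were higher in N18 and 1 lower, and the median difference was 0.62. Ccnb1, the cyclin that carries Cdk1 into mitosis, measured 13.50, 13.61, 13.64 and 13.30 in N18 and 11.81, 11.90, 11.68 and 11.77 in BV2, all 4 N18 plates above all 4 BV2 plates. The difference was 1.72 ± 0.10, or 3.30-fold (adjusted p = 4.96e-09). Cdc25b, which removes the inhibitory phosphate from Cdk1, was higher by 0.91 ± 0.10, Ccna2, the cyclin of replication and early mitosis, by 0.81 ± 0.11, and Ccnb2 by 0.80 ± 0.08, although its level in BV2 was on average below the threshold.

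The E cyclins start replication, and they moved apart. Ccne2 was higher in N18 by 0.42 ± 0.09, with 2 of its 3 probes above the threshold there and 1 in BV2. Ccne1 was lower in N18 by 0.33 ± 0.11 (adjusted p = 0.0156), at 11.90 to 12.32 against 12.40 to 12.59 in BV2, and on the scale of the seminal proteins the difference turned to 0.30. Cdc25c, the other phosphatase of this group beside Cdc25b, was higher by 0.44 ± 0.08. Cdk1 was called higher by 0.24 ± 0.06, but it lay at the background in both lines and 1 of its 3 probes moved the other way, so this call is between values below the threshold.

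Of the 7 mitotic kinases and checkpoint genes 6 were higher in N18, none (0) was lower, and the median difference was 0.39. Bub1, a checkpoint kinase at the kinetochore, was higher by 0.85 ± 0.08 (adjusted p = 5.1e-07), at 11.59, 11.60, 11.56 and 11.51 in N18 and 10.81, 10.59, 10.67 and 10.82 in BV2, and 3 of its probes were above the threshold in N18 but 1 in BV2. Aurkb, the kinase of the chromosome passenger complex, was higher by 0.68 ± 0.10 and Aurka, the kinase of the spindle poles, by 0.47 ± 0.11. The checkpoint genes Mad2l1, Bub1b and Ttk were higher by 0.39 ± 0.09, 0.33 ± 0.09 and 0.33 ± 0.09. Plk1, the kinase that acts through most of mitosis, was not called at 0.12 ± 0.08, with 14.27 to 14.48 in N18 and 14.18 to 14.38 in BV2, and on the scale of the seminal proteins it was called, at 0.71.

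The 11 genes of licensing and the helicase split, with 6 higher in N18, 3 lower and a median difference of 0.25. Cdc45, which joins the loaded ring to make the helicase, was higher by 0.98 ± 0.11, or 1.97-fold (adjusted p = 2.84e-06), at 13.40, 13.09, 13.06 and 13.03 in N18 against 12.27, 12.24, 12.04 and 12.13 in BV2. Gmnn, or geminin, the inhibitor of Cdt1, was higher by 0.56 ± 0.09, and Cdt1 itself by 0.41 ± 0.12 with plates that overlapped. Mcm10, which helps to start the helicase, was higher by 0.39 ± 0.08.

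The 6 subunits of the Mcm ring did not move as 1 group after quantile normalization. Mcm4 was higher in N18 by 0.44 ± 0.13 and Mcm7 by 0.25 ± 0.10 (adjusted p = 0.0407, with plates that overlapped and a call that was lost without any 1 of 6 single plates), Mcm2 was not called at 0.08 ± 0.10, and Mcm3 and Mcm6 were lower by 0.48 ± 0.08 and 0.48 ± 0.16. The difference of Mcm6 was -0.29 and still called without N18 plate 1, which lay below the other 3. Mcm5 had the most negative difference of the 40 genes, with 12.20, 12.16, 12.12 and 12.01 in N18 below 13.16, 13.47, 12.92 and 13.03 in BV2. Its difference of -1.02 ± 0.12 is 2.03-fold (adjusted p = 5.07e-06), and its 3 probes moved by -0.93, -1.08 and -1.04. On the scale of the seminal proteins the order of the 6 subunits was the same but the values were higher: Mcm5 was at -0.37 and no longer called (adjusted p = 0.179), Mcm3 at 0.11, Mcm6 at 0.19, Mcm2 at 0.73, Mcm7 at 0.90 and Mcm4 at 1.04. Cdc6, the loader of the ring, was not called, with a 95% interval from -0.20 to 0.14.

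In the clamp and nucleotide group 2 of 5 genes were higher in N18 and 1 was lower, with a median difference of 0.26. Ribonucleotide reductase makes the building blocks of DNA, and its large subunit Rrm1 was higher in N18 by 0.97 ± 0.09, or 1.95-fold (adjusted p = 5.26e-07), at 13.98 to 14.17 against 12.99 to 13.21. Its small subunit Rrm2 was lower by 0.33 ± 0.10 (adjusted p = 0.0104), at 12.13 to 12.33 against 12.43 to 12.73, and at 0.31 on the scale of the seminal proteins. Tk1, thymidine kinase, was higher by 0.95 ± 0.10, at 12.16 to 12.30 against 11.19 to 11.52. Pcna, the sliding clamp, was not called at -0.11 ± 0.08, and neither was Tyms, thymidylate synthase, at 0.26 ± 0.17, where 1 probe carried the signal in BV2 and 2 in N18.

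Among the 3 transcription factors Foxm1 had the largest difference. It measured 12.50, 12.34, 12.26 and 12.41 in N18 and 11.03, 10.92, 10.90 and 11.05 in BV2, a gap far wider than the spread within either line. The difference was 1.41 ± 0.09, or 2.65-fold (adjusted p = 7.65e-09), and the 3 probes gave 1.70, 1.18 and 0.92. E2f1 was higher in N18 by 0.73 ± 0.09. E2f2 was lower by 0.28 ± 0.09 (adjusted p = 0.0191), at 11.27 to 11.58 against 11.66 to 11.87, and at 0.26 on the scale of the seminal proteins.

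**Figure D3:**
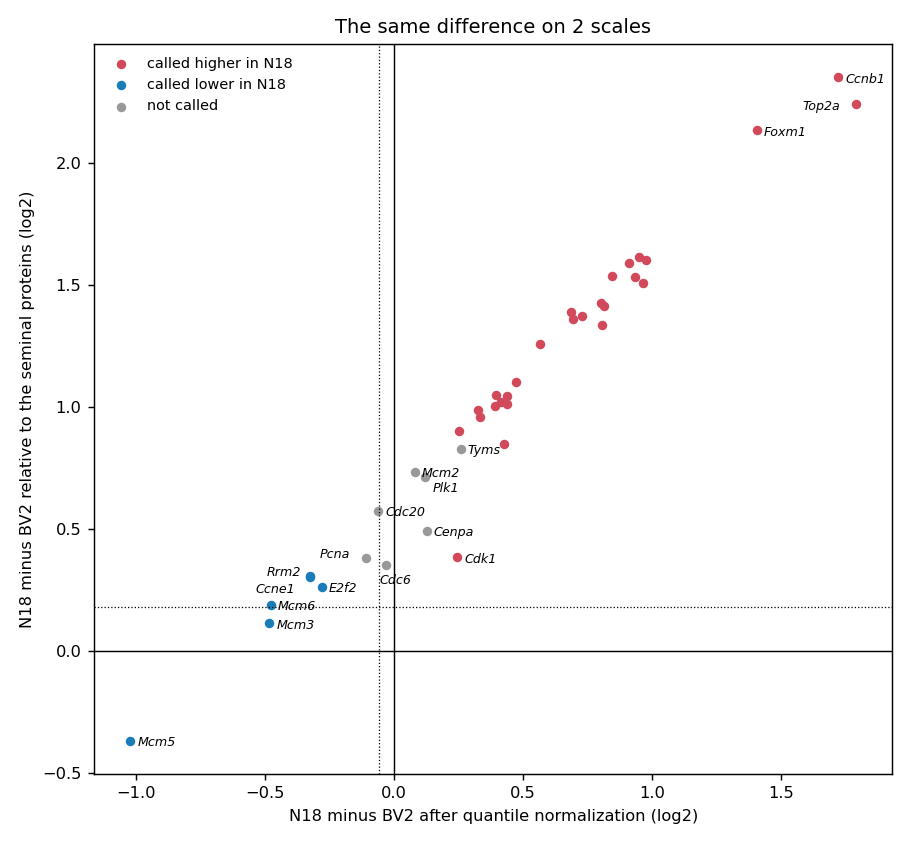
Difference between N18 and BV2 for each of the 40 genes after quantile normalization (x axis) and relative to the seminal proteins (y axis), both on the log2 scale; colors give the call after quantile normalization and dotted lines the median of all genes and targets on each scale. All 40 genes have a higher value on the y axis than on the x axis, and of the blue genes only Mcm5 stays below 0 on the y axis, at -0.37.

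Other genes of the same pathways were read from 9 lists of textbook roles, which hold 198 measured genes of 219. Of these 113 were higher in N18 and 36 lower, against 25.9% and 35.8% of all genes and targets. A further 49 were not called, and the median difference was 0.33. Relative to the seminal proteins 148 were higher and 5 lower, against 41.9% and 15% of all genes and targets. On that scale 167 of the 198 lay above the median of all genes and targets, which was 0.18, and their own median was 0.82. Genes and targets detected in both lines had a higher median on that scale, 0.45, with 52.5% called higher and 7.95% lower. Spindle and cytokinesis genes had the highest share, with 20 of 25 higher, 2 lower and a median of 0.55. Stmn1, a microtubule regulator that is also abundant in neurons, was higher by 1.80 ± 0.07, Ckap2, a spindle protein, by 1.40 ± 0.10 and Racgap1, which directs cytokinesis, by 1.38 ± 0.08, whereas Bora, an activator of Aurka, and Tacc1 were at -0.27 and -0.22 and turned positive relative to the seminal proteins.

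Kinetochore, centromere and checkpoint genes were higher in N18 for 19 of 31 and lower for 5. Hjurp, the chaperone that places Cenpa, was higher by 2.03 ± 0.09, Nuf2, a subunit of the microtubule-binding Ndc80 complex, by 1.70 ± 0.10 and Mad1l1, the partner of Mad2l1, by 1.36 ± 0.10, while Cenpb, Cenpo and Zw10 were at -1.14, -0.66 and -0.62. In condensation and cohesion 14 of 23 were higher and 3 lower, with the cohesin subunit Rad21 at 1.59 ± 0.09, its regulator Pds5b at 1.11 ± 0.10 and the chromatin protein Hmgb2 at 1.00 ± 0.10 on the higher side, and Wapl, which releases cohesin, at -0.98, Stag2 at -0.52 and Incenp at -0.44 on the lower side. The last 2 turned positive relative to the seminal proteins.

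Of the anaphase-promoting complex and SCF genes 11 of 17 were higher and 2 lower. Fbxo5, an inhibitor of the anaphase-promoting complex, was higher by 1.98 ± 0.10, Skp1 by 1.24 ± 0.11 and Cdc16 by 0.62 ± 0.09, and Anapc1 and Ube2s, at -0.45 and -0.36, turned positive relative to the seminal proteins. Among further cyclins, kinases and phosphatases 13 of 22 were higher, led by Cdk7 at 1.20 ± 0.10, Wee1 at 1.11 ± 0.09 and Cdk2 at 1.07 ± 0.10, and the 2 lower genes, Aurkc and Ccnb3, were below the threshold in both lines. Of the polymerases, clamp loader and fork proteins 15 of 27 were higher and 6 lower. There the primase subunit Prim1 was at 1.55 ± 0.09, the chromatin assembly factor Chaf1b at 1.33 ± 0.10 and Pole2 at 1.19 ± 0.09, against the partner subunits Pola2 at -1.14 ± 0.09 and Pola1 at -0.70 ± 0.09 and Timeless at -0.59 ± 0.10.

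Origin recognition and helicase activation was the list with more genes lower than higher, 8 against 6 of 17, with a median of -0.11 that became 0.42 relative to the seminal proteins. Cdc7 and its activator Dbf4, the kinase pair that fires origins, were higher by 0.77 ± 0.08 and 0.48 ± 0.11 and Recql4 by 0.52 ± 0.11, while Gins3, Orc2 and Ticrr were at -0.84, -0.82 and -0.34, the last of which turned positive. Nucleotide supply had 7 of 15 higher and 4 lower. Its leading genes were the kinase Dck at 1.36 ± 0.13, Umps at 1.14 ± 0.09 and Paics at 0.57 ± 0.09, and on the lower side Impdh2 at -0.80, Cad at -0.65 and Gart at -0.60, where Gart turned positive. Transcription factors of the cycle had 8 of 21 higher, with E2f6, Lin54 and the NF-Y subunit Nfyb at 0.79, 0.52 and 0.51, and 4 lower, with the repressor E2f4, Nfya and Cdca7 at -0.95, -0.75 and -0.73. Of the lower genes named from these lists, only Cenpb, Cenpo, Gins3 and Pola2 were still called lower relative to the seminal proteins, at -0.71, -0.54, -0.45 and -0.55.

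**Figure D4:**
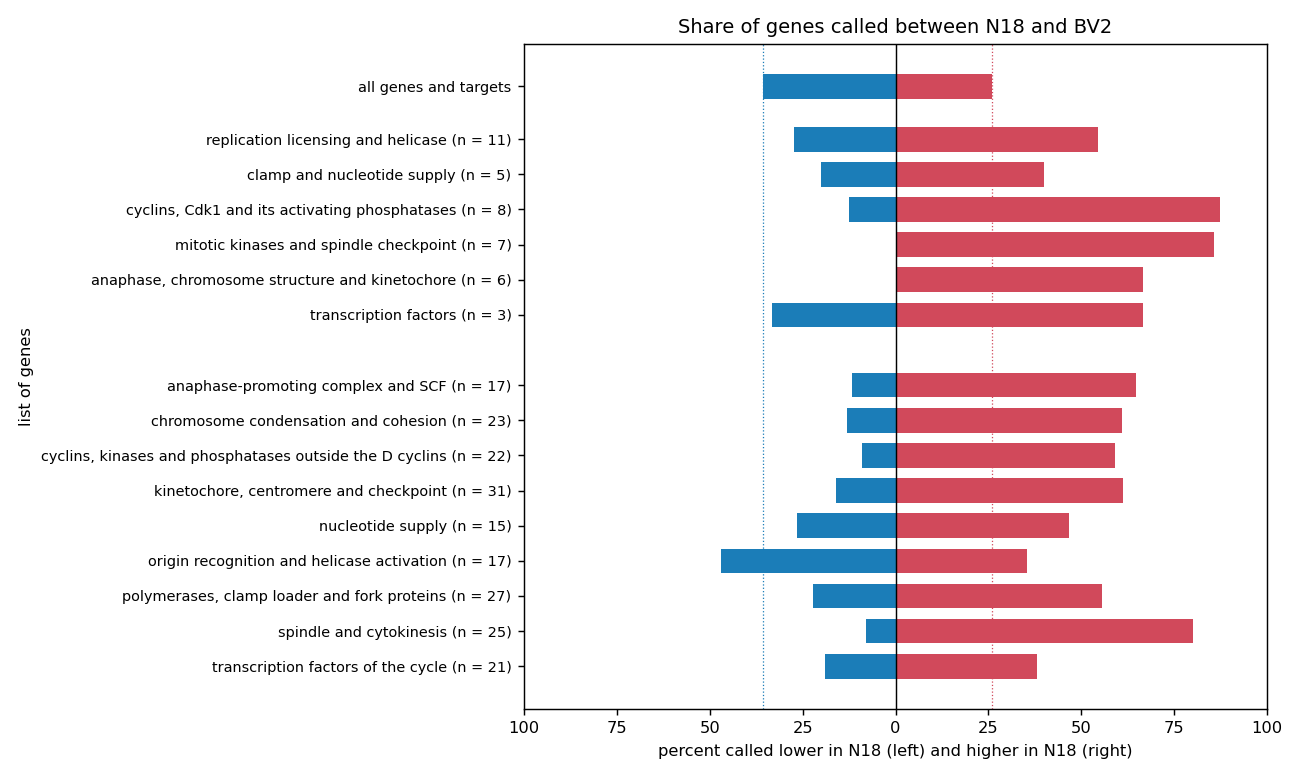
Percent of the genes of each list called higher (right, red) or lower (left, blue) in N18 than in BV2 at an adjusted p under 0.05 in limma after quantile normalization, for all genes and targets (top), the 6 groups of the 40 genes (middle) and the 9 lists of other pathway genes (bottom), with dotted lines at 25.9% and 35.8%, the shares for all genes and targets. Every list has a longer red bar than all genes and targets, and the longest blue bar is that of origin recognition, at 8 of 17 genes.

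Against the AtT20-labelled plates the same genes went both ways. In BV2 20 of the 40 were higher and 12 lower, with 25% and 43.8% of all genes and targets called in these directions, and in N18 23 were higher and 10 lower, with 26.7% and 46.6%. The median difference of the 40 genes was 0.23 for BV2 and 0.76 for N18, against -0.23 and -0.25 for all genes and targets. These 2 comparisons share the AtT20-labelled plates. Among genes detected in both lines of a pair the balance was different, with 6 higher, 11 lower and a median of -0.42 over 22 genes for BV2, and 8 higher, 10 lower and a median of 0.06 over 23 genes for N18. Of all 6957 and 6847 genes and targets so detected, 21.3% and 21.7% were called higher and 57.7% and 58.1% lower. Most of the lower calls were lost relative to the seminal proteins, where 4 genes were called lower in BV2 (Ccnb2, Tk1, Cdc25b and Cdk1, the last of which was not called before) and 0 in N18, against 16.9% and 16.4% of all genes and targets, and the median of all genes and targets moved to 0.28 and 0.54. Without normalization BV2 had 14 genes higher and 19 lower with a median of -0.39, where 11.4% and 74.1% of all genes and targets were called. N18 had 25 and 8, where 19.4% and 62.3% were, and the median of all genes and targets was -1.08 and -0.85. On the scale of the seminal proteins 28 of the 40 genes in BV2 and 36 in N18 lay above the median of all genes and targets.

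Several of the genes that were higher in both lines had a level below the threshold on every AtT20-labelled plate. For these only a lower bound of the fold in array signal can be given, the smaller of the bounds from both scales. Probes of the same gene often disagreed on the AtT20-labelled plates, as described below, and a probe at the background there does not show that the mRNA was low. The bounds therefore hold for the signal of these probes and not for the mRNA. Top2a measured 10.73, 10.61, 9.75 and 10.46 on these plates, below its threshold on each. It was at least 12.1-fold higher in N18 and at least 3.5-fold higher in BV2. Cdc20 was at least 4.6-fold and 4.8-fold higher in N18 and BV2, Bub1b at least 3.7-fold and 2.9-fold, and Birc5 at least 3.2-fold and 1.7-fold. Ccnb1 was at least 4.7-fold higher in N18, Foxm1 at least 2.1-fold, Mcm5 at least 3.6-fold higher in BV2, and Rrm2 at least 2.4-fold higher in BV2 and 1.9-fold in N18. For Ccnb1 and Rrm2, 1 of the 3 probes was above the threshold on the AtT20-labelled plates, at 0.63 and 0.47.

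For genes above the threshold on the AtT20-labelled plates, the difference was 1.75 ± 0.12 for Mcm3 in BV2. In N18 it was 2.23 ± 0.13 for Ccna2, 1.85 ± 0.16 for Ube2c and 1.81 ± 0.15 for Aurka, where 2 of the 3 probes of Ube2c had the direction of the gene. Ccna2 and Aurka barely passed on the AtT20-labelled plates, at levels of 0.48 and 0.40 against 0.37. Each passed on 3 of 4 plates and with 1 of 3 probes, so the sizes of these 2 differences rest on values near the background. In BV2 the genes with the largest lower differences were Ccnb2 at -2.02 ± 0.17, Tk1 at -1.89 ± 0.13 and Cdc25b at -1.71 ± 0.14. The level of Ccnb2 in BV2 was 0.31, below the threshold, so the size of its difference rests on a value near the background. Tk1, for example, measured 13.22, 13.27, 13.08 and 13.16 on the AtT20-labelled plates, above 11.19 to 11.52 on the BV2 plates. The call of Cdc25b in BV2 was lost when probes were combined by their median, where the difference was -0.30 and the adjusted p 0.368.

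On the AtT20-labelled plates the 3 probes of a gene seldom passed the threshold together. Of the 39 genes with 3 probes, 27 had at least 1 probe above the threshold there, and all 3 were above it for only 4 of them (Mcm3, Mcm6, Ccne1 and Plk1). In BV2 all 3 were above it for 27 of 38 such genes and in N18 for 31 of 38. Over all targets with 3 probes, those with all 3 above were 10.5% of those with at least 1 above on the AtT20-labelled plates, 38.4% for BV2 and 47.1% for N18, so that the lower share on these plates was seen over the whole array as well.

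Mcm4 shows the pattern. Its 3 probes had levels of -0.03, 4.71 and 0.03 on the AtT20-labelled plates, where 1 probe alone lifted the gene over the threshold. In BV2 they had 3.20, 3.27 and 2.98, and in N18 4.24, 4.50 and 3.76. Mcm7 had 0.11, 0.04 and 4.78 on the AtT20-labelled plates against 1.62, 3.00 and 3.11 in BV2, and Rrm1 0.16, -0.01 and 4.03 against 2.58, 4.05 and 2.69. Plk1 stood apart, with 4.66, 3.74 and 4.39 on the AtT20-labelled plates and 4.71, 3.95 and 4.33 in BV2. Over the listed genes with a probe above the threshold, the median range between the 3 probes was 2.65 on the AtT20-labelled plates, against 1.27 for BV2 and 1.37 for N18. Over all 39 genes with 3 probes the order was the other way, at 1.04, 1.26 and 1.34, and so it was over all targets with a probe above, at 1.09, 1.25 and 1.38.

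Several directions against these plates rest on few probes. The probes of a gene disagreed in direction for 12 of the 32 genes called in BV2 against the AtT20-labelled plates and for 13 of the 33 called in N18, compared with 1 of the 33 called between N18 and BV2, which was Cdk1. Among the called genes of the other pathway lists, the probes disagreed for 75 of 153, 54 of 151 and 10 of 149 in these comparisons. The share over all genes and targets was not computed, so these counts do not show that the disagreement is particular to the listed genes. When a gene had to have at least 2 probes above the threshold, a rule chosen after seeing the data, 13 genes were detected on the AtT20-labelled plates, against 33 for BV2 and 38 for N18. The share of all genes and targets that pass this rule was not computed. What sets the probes of these plates apart was not tested.

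**Figure D5:**
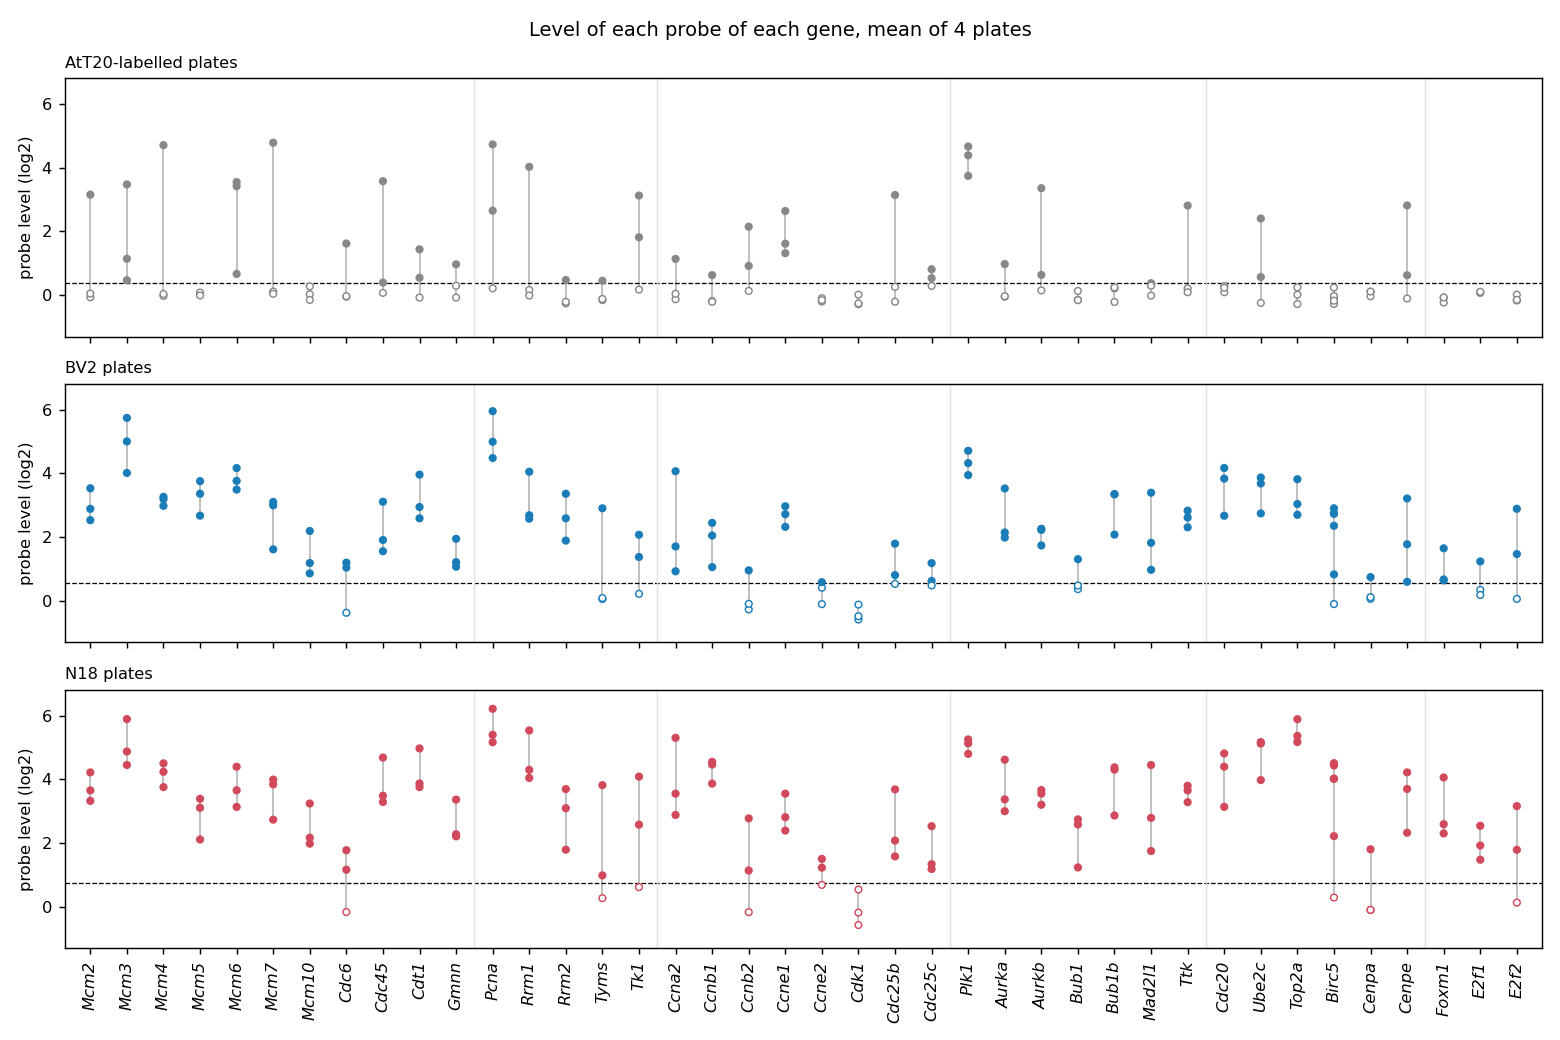
Level of each probe of the 40 genes, as log2 over the mean of the seminal proteins and averaged over 4 plates, in each line; filled points are above the threshold of the line (dashed), open points below it, and gray bars join the probes of a gene. On the AtT20-labelled plates single probes stand high while others of the same gene lie near 0, as for Mcm4 at 4.71 beside -0.03 and 0.03, whereas in BV2 and N18 the probes of most genes pass together.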

How the data were processed

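RNA of 12 plates was hybridized to mouse NimbleGen arrays, 1 array per plate and 4 plates per line. The authors deposited log2 values of the Cy3 intensity of 72000 probes. Neither background subtraction nor normalization between arrays was found in them or is described in the paper's methods. Precision is limited by the 4 arrays of each line. The labels call the plates biological replicates, and p values measure the spread between them.

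The probes form 25631 targets, of which 17780 (69.4%) were matched to a symbol through transcript accessions in a RefSeq table of mouse genes (GRCm38.p6), used for names only. Probes were quantile normalized over the 12 arrays, averaged on the linear scale per target and taken to log2, and targets of a gene were averaged. Each pair of lines was fitted on its 8 arrays with lmFit and eBayes (trend) in limma 3.58.1 (R 4.3.3), with Benjamini-Hochberg adjustment over 25128 genes and targets. Detection followed the rule in the paper's statistical methods, with 10 seminal proteins and 2 SD, on values without normalization. For genes below the threshold on every plate of a line, the fold was computed against the threshold itself and rounded down, and the smaller of the values on both scales was taken.

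The alternatives tried were values without normalization, levels over the seminal proteins and normalization of the pair alone. Others were the mean or median of log2 probes, normexp background correction (offset 50) and the highest target. Also tried were only genes detected in at least 1 line of the pair, a difference of at least 1 and 1 variance for the 3 lines. A replicate block and leaving out each plate completed the comparisons. For detection they were quantile normalized values, 3 SD, olfactory receptor genes as controls and all plates above the threshold.

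The 40 measured genes are all named for N18 against BV2, the 10 called genes of largest difference for the other pairs, and the 3 of largest difference in each direction of every pathway list. Other genes and plates singled out were chosen after their values were seen. The genes and lists were chosen with earlier results of these data known. The fit was tested on simulated data with the spread of each line, where the share of false calls was above the nominal level in each comparison that made calls, and small changes against the AtT20-labelled plates were rarely or never recovered. Figures were drawn with Python 3.11.15 and matplotlib 3.10.9.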

Additional observations from a re-analysis of the deposited data

Results flagged for a closer look

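With the values of 40 genes in 3 lines, 120 groups of 4 plates were examined for a plate far from the other 3, and 3 groups (2.5%) had one, where chance gives about 1 in 20. The normalized log2 intensity of Mcm6, a subunit of the helicase ring, was 12.64 on N18 plate 1, against 13.35 to 13.45 on the other N18 plates. That of Tk1, thymidine kinase, was 11.52 on BV2 plate 2, against 11.19 to 11.23 on the others, and it was still lower than on every N18 plate. The transcription factor E2f1 measured 10.41 on BV2 plate 3, against 10.67 to 10.71 on the other BV2 plates. Leaving out these plates in turn did not end the calls of Mcm6, Tk1 or E2f1 between N18 and BV2. The difference of Mcm6 went from -0.48 to -0.29 without N18 plate 1, those of Tk1 and E2f1 were 1.03 without BV2 plate 2 and 0.65 without BV2 plate 3.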

How the results depend on the processing

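For N18 against BV2, the 27 genes called higher kept their direction under all 19 alternatives (Cdk1 in the 18 that test it), and apart from the minimum difference 26 of them kept their call, the exception being Mcm7. None of the 6 lower calls survived the scaling. Without normalization 0 genes were called lower and the median difference was 0.99, relative to the seminal proteins 0 and 1.02, and after normexp correction the median was 0.52. Of all genes and targets, 34.1% were called higher and 10.6% lower without normalization, with a median of 0.15. Relative to the seminal proteins these were 41.9%, 15% and 0.18, and the median of all genes and targets after normexp correction was -0.11. With a difference of at least 1, 3 genes were higher and 1 lower. The share of all genes and targets under this minimum was not computed for any pair of lines. Differences that turned positive, without normalization and relative to the seminal proteins, were 0.083 and 0.11 for Mcm3, 0.16 and 0.19 for Mcm6, 0.32 and 0.35 for Cdc6, 0.35 and 0.38 for Pcna, 0.28 and 0.31 for Rrm2, 0.28 and 0.30 for Ccne1, 0.54 and 0.57 for Cdc20 and 0.23 and 0.26 for E2f2. Cenpa turned to -0.18 with the median of probes. Leaving out 1 plate at a time, 26 to 27 genes were higher and 5 to 6 lower, with medians of 0.37 to 0.45. The difference of Cdc20 then ran from -0.12 to 0.0013 and that of Cdc6 from -0.076 to 0.021, none of them called. Mcm7 lost its call without any of BV2 plates 1, 3 and 4 and N18 plates 1, 2 and 3, E2f2 without BV2 plate 4 or N18 plate 3, and Ccne1 without N18 plate 1.

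For BV2 against the plates labelled AtT20, 19 genes were lower with a median of -0.39 without normalization, and 4 with 0.97 relative to the seminal proteins. The median was 0.75 with the mean of log2 probes, 0.77 with their median (6 lower) and 0.39 after normexp correction. With the median of log2 probes 31.7% of all genes and targets were called lower. Over listed genes detected in at least 1 line of the pair it was 0.51, a rule that keeps genes detected in 1 line alone. Over the 22 detected in both lines it was -0.42. With a difference of at least 1, 6 were lower. For N18 against these plates, 36 were higher, 0 lower and the median 2.16 relative to the seminal proteins. Of all genes and targets, 60.7% were called higher and 16.4% lower on that scale. Averaging log2 probes left 5 lower (median 1.20), their median 6 (1.38) and a difference of at least 1 left 2, and the median after normexp correction was 0.96. With the mean and the median of log2 probes, 42.2% and 34.3% of all genes and targets were called lower. Leaving out 1 plate at a time gave 19 to 20 higher, 12 to 14 lower and medians of 0.19 to 0.29 for BV2, and 23 to 25, 10 to 11 and 0.71 to 0.81 for N18. On the plates labelled AtT20 13 genes were detected with the median of probes, and 13 with at least 2 probes. The cause of these shifts was not tested.

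Plates share only a number between lines. Correlations of same-numbered deviations were -0.11 to 0.32. With a replicate block 26 genes were higher and 6 lower in N18 than in BV2, where Mcm7 lost its call (adjusted p = 0.0523 in limma). Signal near the background, as for Cdk1, Cenpa, Ccne2 and, in BV2, Ccnb2, limits what the arrays can show.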
